A study of Mus musculus with 10 samples.

Results

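The tripartite motif (TRIM) proteins are a large family of E3 ubiquitin ligases, and their transcripts were read here in primary mouse microglia given serum vesicles. Members were taken as the rows of the expression table whose gene symbol is Trim, a number and at most 1 further letter. They numbered 61 of 32074 gene symbols, and 1 further symbol of that form was not analysed here. Of the 61, 36 averaged 1 TPM or more over the 10 libraries and are described below (TPM are transcript levels per gene length, scaled to a total of 1000000 in each library). The other 25 are counted at the end. The libraries are messenger RNA from microglia of CD-1 pups (postnatal day 2 to 4), the immune cells of the brain, purified from cortex and cultured. The cells had 24 h with 1 µg of small extracellular vesicles (sEVs) taken from serum after spared nerve injury (SNI sEV, 3 libraries), with 1 µg of those taken after a sham operation (sham sEV, 3 libraries), or with phosphate-buffered saline (PBS, 4 libraries). Spared nerve injury, used in mice to model neuropathic pain, cuts some branches of the sciatic nerve and leaves another whole. All cultures had medium with exosome-depleted serum. The labels give no genetic change, and do not say how many mice or vesicle preparations each group rests on.

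TRIM proteins carry a RING domain, which hands ubiquitin from a conjugating enzyme to a target, followed by B-box and coiled-coil domains and a variable C-terminus that picks the target. Many are made on exposure to interferon and act on virus sensing, nuclear factor kappa B signalling and autophagy in macrophages and microglia. Others act on chromatin, the centrosome, muscle proteins or neuronal microtubules and are not known for induction by interferon. In the mouse a block of interferon-inducible members (Trim5, Trim6, Trim12, Trim30 and Trim34 genes) lies side by side on chromosome 7.

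The promoter sequences that bear on the members described first are those with the core of an interferon-stimulated response element. The core searched was a pair of GAAA half-sites with any 2 bases between them, on either strand, within 250 bases upstream of the annotated start, in RefSeq promoters of GRCm38.p6. A promoter was at hand for 47 of the 61 members, and 5 of these 47 held the core, all of them on the list of members known for induction by interferon. Of all 27025 genes in the same table, 936 (3.46%) had a promoter that held it. The windows below are 80 bases long, read 5′ to 3′ on the strand of the gene, with the match in capitals. It reads as its reverse complement in each of them.
Trim30a, chr7:104465194-104465273, minus strand: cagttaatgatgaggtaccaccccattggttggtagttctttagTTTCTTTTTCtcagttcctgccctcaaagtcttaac
Trim30d, chr7:104507850-104507929, minus strand: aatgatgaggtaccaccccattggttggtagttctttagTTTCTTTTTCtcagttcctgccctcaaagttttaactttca
Trim5, chr7:104288107-104288186, minus strand: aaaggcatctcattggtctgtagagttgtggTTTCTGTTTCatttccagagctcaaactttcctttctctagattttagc
Trim12c, chr7:104353350-104353429, minus strand: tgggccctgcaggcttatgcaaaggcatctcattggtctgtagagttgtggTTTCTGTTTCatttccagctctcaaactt
Trim26, chr17:36836942-36837021, plus strand: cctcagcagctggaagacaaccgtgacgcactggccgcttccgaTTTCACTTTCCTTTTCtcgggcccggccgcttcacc

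The Trim30a and Trim30d windows share an unbroken run of 69 bases around the match, and the Trim5 and Trim12c windows one of 49 bases. In Trim26 the capitals span a pair of overlapping matches. A gamma-activated site (TTC and GAA with any 3 bases between them, which reads the same on both strands) was found for 4 of the 47 members, beside 8.13% of all genes, so the members were near the general share. The 4 were Trim15, Trim30c, Trim45 and Trim46, none of which had the interferon-stimulated core. The window of Trim30c is shown, a choice made after its values were seen, because it lies in the chromosome 7 block and is described by library below.
Trim30c, chr7:104400779-104400858, minus strand: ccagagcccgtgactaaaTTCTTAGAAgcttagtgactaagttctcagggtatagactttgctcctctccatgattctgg

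Each match is a description of letters and not of a bound site. The core stood in 3 of the 7 promoters at hand for members higher with SNI sEV than with PBS and in 4 of the 11 for members higher with sham sEV. None of the 11 at hand for members lower with sham sEV held it, which is near the share of all genes (3.46%). The matches of Trim30a and Trim30d lie in a run of bases that both share, as do those of Trim5 and Trim12c. The matches within each pair are therefore not independent.

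Marker sums of the 3 groups overlapped in part. The sham-sEV libraries stood below the others in the oligodendrocyte-lineage and astrocyte lists. They stood above the others in the lymphocyte and neutrophil list and the fibroblast and pericyte list. The 7 microglial markers summed to 4032 to 4278 TPM with SNI sEV, 3582 to 3696 with sham sEV and 3343 to 3967 with PBS. With sham sEV against PBS 2 of them were higher and 4 lower. Csf1r averaged 758 TPM with SNI sEV, 639 with sham sEV and 755 with PBS. Cx3cr1 averaged 385 TPM with SNI sEV, 50.9 with sham sEV and 345 with PBS, while P2ry12 and Tmem119 were at 3.65 to 6.92 TPM in the group means. Markers of other cells were present. The 7 oligodendrocyte-lineage markers summed to 460 to 529 TPM with SNI sEV, 274 to 308 with sham sEV and 429 to 486 with PBS. The 6 astrocyte markers summed to 61.3 to 76.0 TPM with SNI sEV, 30.3 to 38.9 with sham sEV and 58.6 to 76.2 with PBS. The 5 neuronal markers summed to 10.8 to 12.3 TPM with SNI sEV, 9.83 to 11.9 with sham sEV and 9.40 to 15.6 with PBS. Of these, Rbfox3 and Snap25 were under 0.1 TPM. In bulk RNA, fewer cells of a type and less RNA per cell cannot be told apart. Over the 14806 genes that averaged 1 TPM or more, the median gene differed by -0.25 (log2) with sham sEV against PBS, by 0.24 with SNI sEV against sham sEV and by -0.01 with SNI sEV against PBS. Median-of-ratios scaling, which sets each library's median ratio equal, brought these medians to within 0.01 of 0. Of the PBS libraries, replicate 1 was the lowest of the 4 in 28 of the 36 TRIM genes. The same share was not taken over all genes. Replicate 1 also had the lowest median-of-ratios factor of the PBS libraries, at 0.999 against 1.07 to 1.11. Its low values are therefore not read as particular to the family.

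The summed level of the family differed little between the 3 groups, while its makeup differed more. All 61 members summed to 863 ± 12.1 TPM with SNI sEV (SD, n = 3), 845 ± 19.5 with sham sEV (n = 3) and 794 ± 46.9 with PBS (n = 4). The ranges were 852 to 876 TPM with SNI sEV, 831 to 868 with sham sEV and 727 to 834 with PBS. Every SNI-sEV library thus lay above every PBS library, while the sham-sEV range overlapped both. The 15 members on the interferon list summed to 246 ± 7.23 TPM with SNI sEV, 360 ± 19.5 with sham sEV and 158 ± 22.8 with PBS. The 46 others summed to 617 ± 11.9 TPM with SNI sEV, 485 ± 5.65 with sham sEV and 636 ± 30.1 with PBS. The ranges of the interferon list did not overlap, at 238 to 251 TPM with SNI sEV, 341 to 380 with sham sEV and 126 to 180 with PBS. For the other members the sham-sEV range (479 to 489 TPM) lay below the ranges with SNI sEV (604 to 624) and PBS (600 to 666).

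Trim28, a corepressor that KRAB zinc finger proteins bring to chromatin, was the most abundant member with SNI sEV (142 ± 1.34 TPM) and with PBS (154 ± 7.18 TPM). With sham sEV that place went to Trim30a at 155 ± 9.77 TPM, which ranked 3 with SNI sEV and 6 with PBS. Trim30a made up 10.2% of the summed TPM of the 36 with SNI sEV, 18.4% with sham sEV and 5.04% with PBS. Trim35 averaged 111 ± 6.85 TPM with SNI sEV, 90.9 ± 1.06 with sham sEV and 106 ± 10.9 with PBS. Trim8, known for acting on the cytokine-signalling suppressor SOCS1, averaged 72.3 ± 1.09 TPM with SNI sEV, 60.0 ± 2.33 with sham sEV and 79.4 ± 4.38 with PBS. The lowest members above the limit were Trim5, Trim17 and Trim2, at 2.49, 2.26 and 2.17 TPM over all libraries, and the highest below it were Trim45, Trim12a and Trim29, at 0.919, 0.608 and 0.510 TPM.

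With SNI sEV a small set of TRIM genes known for induction by interferon rose over PBS, and none fell past the test. Of the 36, 8 were higher with SNI sEV (limma on log2(TPM + 1), two-sided, Benjamini-Hochberg adjusted p under 0.05 over all 14806 genes), beside 2.97% of all genes. All 8 are on the interferon list, which has 11 tested members. None was lower, beside 2.36% of all genes. At an unadjusted p under 0.05 (limma) the numbers were 11 higher and 4 lower. The share of all genes at that limit was not taken, so these numbers have no general rate beside them. By the libraries alone, 9 members lay above every PBS library in all SNI-sEV libraries, beside 6.29% of all genes, and 4 lay below, beside 11.1%. The median log2 fold change was 0.07 over the 36 and -0.01 over all genes. The 8 kept their call under both other scalings (median-of-ratios and quantile).

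Trim30a had 85.3, 91.7 and 85.5 TPM with SNI sEV, 144, 163 and 157 TPM with sham sEV, and 29.6, 51.5, 40.3 and 37.7 TPM with PBS. In the mouse its protein restrains Toll-like receptor signalling by degrading TAB2 and TAB3. The groups did not overlap, and the SNI-sEV libraries lay between the others. The log2 fold change was 1.14 ± 0.14 (SE; adjusted p = 0.000484, limma) for SNI sEV against PBS, and 1.96 ± 0.14 for sham sEV against PBS (adjusted p = 1.84e-07, limma).

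Its neighbours Trim30d and Trim30c were much lower in level. Trim30d had 4.46, 4.37 and 4.14 TPM with SNI sEV, 13.7, 18.5 and 17.7 TPM with sham sEV, and 1.13, 2.55, 1.77 and 2.03 TPM with PBS. Trim30c had 1.27, 1.26 and 1.02 TPM with SNI sEV, 5.33, 7.78 and 7.86 TPM with sham sEV, and 0.154, 0.312, 0.209 and 0.251 TPM with PBS. Every SNI-sEV library lay above every PBS library and below every sham-sEV library in both genes. The SNI-sEV fold changes over PBS were 0.92 ± 0.15 for Trim30d (adjusted p = 0.00503, limma) and 0.83 ± 0.12 for Trim30c (adjusted p = 0.00178, limma). The pseudocount holds the Trim30c value down, since the ratio of its mean TPM was 5.12 with SNI sEV and 30.2 with sham sEV, each against PBS. Trim30c passed the limit of 1 TPM through the vesicle groups, its PBS mean being 0.231 ± 0.0666 TPM.

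Trim34a and Trim34b are a near-identical pair whose human counterpart acts with TRIM5 on retroviral capsids. Trim34a had 7.94, 7.13 and 6.43 TPM with SNI sEV, 8.90, 9.81 and 9.59 TPM with sham sEV, and 2.85, 4.55, 3.81 and 3.34 TPM with PBS. Trim34b had 6.80, 6.75 and 6.65 TPM with SNI sEV, 8.23, 8.78 and 8.76 TPM with sham sEV, and 2.54, 4.42, 3.17 and 3.33 TPM with PBS. The 3 groups were apart in both, at about the same levels. The log2 fold changes of SNI sEV over PBS were 0.83 ± 0.12 and 0.84 ± 0.12 (adjusted p = 0.00145 and 0.00133, limma). Of all 50-base stretches of the longest Trim34a transcript, 41.3% also occur in Trim34b, and 59.0% the other way, so reads between them are uncertain.

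Trim21, the cytosolic receptor that binds antibody-coated virus, had 23.8, 23.2 and 21.7 TPM with SNI sEV, 40.4, 44.7 and 43.5 TPM with sham sEV, and 14.1, 17.1, 15.4 and 17.0 TPM with PBS. The groups did not overlap, and the rise with SNI sEV was 0.50 ± 0.07 (adjusted p = 0.00188, limma). Trim14, a member without a RING domain that serves the MAVS and cGAS pathways, had 38.2, 40.0 and 38.7 TPM with SNI sEV, 40.0, 47.2 and 43.7 TPM with sham sEV, and 24.5, 31.2, 31.4 and 30.7 TPM with PBS. Both vesicle groups stood above PBS and touched each other. The SNI-sEV fold change was 0.40 ± 0.09 (adjusted p = 0.0239, limma).

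Trim12c, a rodent relative of Trim5, had 13.6, 15.1 and 13.4 TPM with SNI sEV, 15.9, 16.03 and 16.4 TPM with sham sEV, and 8.24, 12.2, 9.52 and 10.8 TPM with PBS. The groups were apart, and the SNI-sEV fold change was 0.44 ± 0.11 (adjusted p = 0.0347, limma). Trim14 lost its call in 5 of the 20 alternative settings and Trim12c in 10, with adjusted p up to 0.105 and 0.157 (limma). In the SNI-sEV and PBS libraries alone, the adjusted p was 0.0546 for Trim14 and 0.107 for Trim12c, and with the replicate number as a block 0.0477 and 0.0527 (limma). The other 6 kept their call in every alternative in which they were tested.

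**Figure D1:**
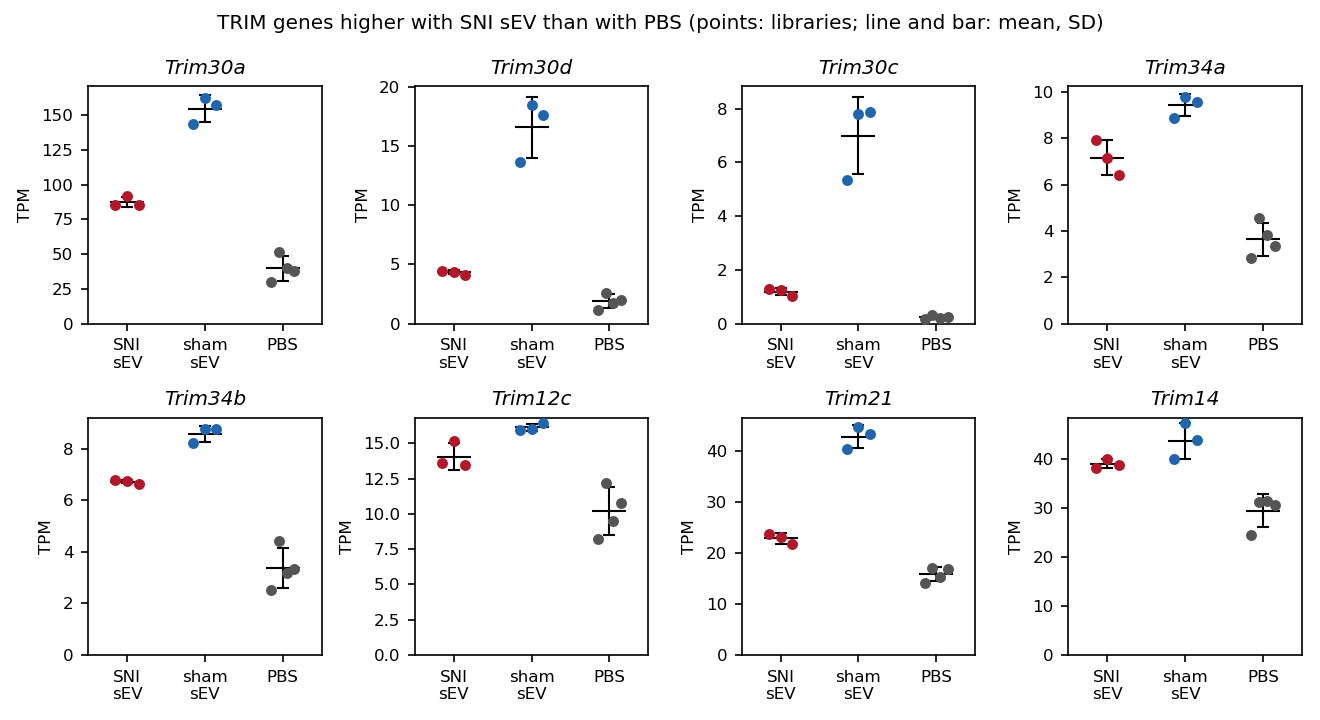
TPM (vertical axes, each from 0) of the 8 TRIM genes higher with SNI sEV than with PBS, in each library of the 3 groups; the line and bar are the mean and SD. In all 8 the SNI-sEV mean lies between the sham-sEV mean and the PBS mean.

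In the PBS group, replicate 1 was the lowest library for all 8 genes and replicate 2 the highest for 7. These counts have no share of all genes beside them. Without PBS replicate 1 the counts were 8 higher and 1 lower, which was Trim16 (adjusted p = 0.0340, limma). Without PBS replicate 2 they were 9 higher and 1 lower, with Trim5 (adjusted p = 0.0398, limma) and Trim47 (adjusted p = 0.0104, limma) added. The 28 members without a call had log2 fold changes of -0.25 to 0.30. Among them were 3 of the interferon list, Trim5 (0.30 ± 0.11), Trim26 (0.21 ± 0.09) and Trim56 (0.28 ± 0.18), at adjusted p of 0.180, 0.222 and 0.441 (limma).

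With sham sEV, 29 of the 36 members passed the test against PBS, beside 68.9% of all genes. Of the 36 members, 12 were higher than with PBS, beside 16.5% of all genes. Another 17 were lower, beside 52.5% of all genes, so the falls were near the general share. The falls are on a scale where the median of all genes was -0.25 (log2). The median of the 36 was -0.19. By the libraries alone, 12 members lay above every PBS library in all sham-sEV libraries, beside 16.7% of all genes, and 15 lay below, beside 49.8%. The 12 kept their call under both other scalings. Of the 17, 7 did, and Trim35, Trim27 and Trim39 changed sign under at least 1 scaling. The SNI-sEV and sham-sEV comparisons share the PBS libraries, so their values for a gene are not independent.

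The 12 rises ran from 0.35 to 2.68 on the log2 scale, 6 of them of at least 1, and 9 of the 12 are on the interferon list. All 8 genes that rose with SNI sEV were among them. The log2 fold changes of sham sEV over PBS were 2.68 ± 0.12 for Trim30c, 2.63 ± 0.15 for Trim30d and 1.38 ± 0.07 for Trim21, with adjusted p of 3.41e-09, 3.56e-08 and 1.59e-08 (limma). For Trim34a and Trim34b they were 1.18 ± 0.12 and 1.15 ± 0.12, with adjusted p of 3.36e-06 and 4.43e-06 (limma). Trim12c rose by 0.63 ± 0.11 and Trim14 by 0.56 ± 0.09, with adjusted p of 0.000254 and 0.000166 (limma). Trim14 stood at 0.83 under median-of-ratios scaling.

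Trim5, whose primate counterpart binds retroviral capsids, had 2.54, 2.62 and 2.58 TPM with SNI sEV, 3.19, 3.34 and 2.91 TPM with sham sEV, and 1.38, 2.51, 1.96 and 1.85 TPM with PBS. It rose by 0.51 ± 0.11 with sham sEV (adjusted p = 0.00188, limma), or by 0.84 under quantile normalization. Of its 50-base stretches 31.0% occur in another member, most of them in Trim12c, so the share of reads between these genes is uncertain too.

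The 3 other rises with sham sEV were not on the interferon list. Trim46, which bundles microtubules at the start of the axon in neurons, averaged 2.29 ± 0.259 TPM with SNI sEV, 3.79 ± 0.103 with sham sEV and 2.22 ± 0.171 with PBS. Trim41, a nuclear and cytoplasmic ligase, averaged 31.5 ± 1.19 TPM with SNI sEV, 37.2 ± 1.07 with sham sEV and 28.8 ± 1.33 with PBS. Trim13, anchored in the endoplasmic reticulum and known for the disposal of misfolded proteins, averaged 2.5 ± 0.204 TPM with SNI sEV, 3.26 ± 0.196 with sham sEV and 2.34 ± 0.277 with PBS. The rises over PBS with sham sEV were 0.57 ± 0.08 for Trim46, 0.36 ± 0.05 for Trim41 and 0.35 ± 0.09 for Trim13, with adjusted p of 5.49e-05, 0.000119 and 0.00333 (limma). Other scalings raised these values to as much as 0.91 for Trim46, 0.63 for Trim41 and 0.69 for Trim13. With SNI sEV their fold changes of 0.03, 0.13 and 0.07 had adjusted p of 0.893, 0.240 and 0.715 (limma). Exons of Trim46, Trim41 and Trim14 overlap those of a gene on the other strand (Krtcap2, Rack1 and Nans among them). The kit keeps strand, but whether the counting used it is not given in the sources used here. Under both other scalings Trim26, Trim56 and Trim3 were also higher with sham sEV.

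**Figure D2:**
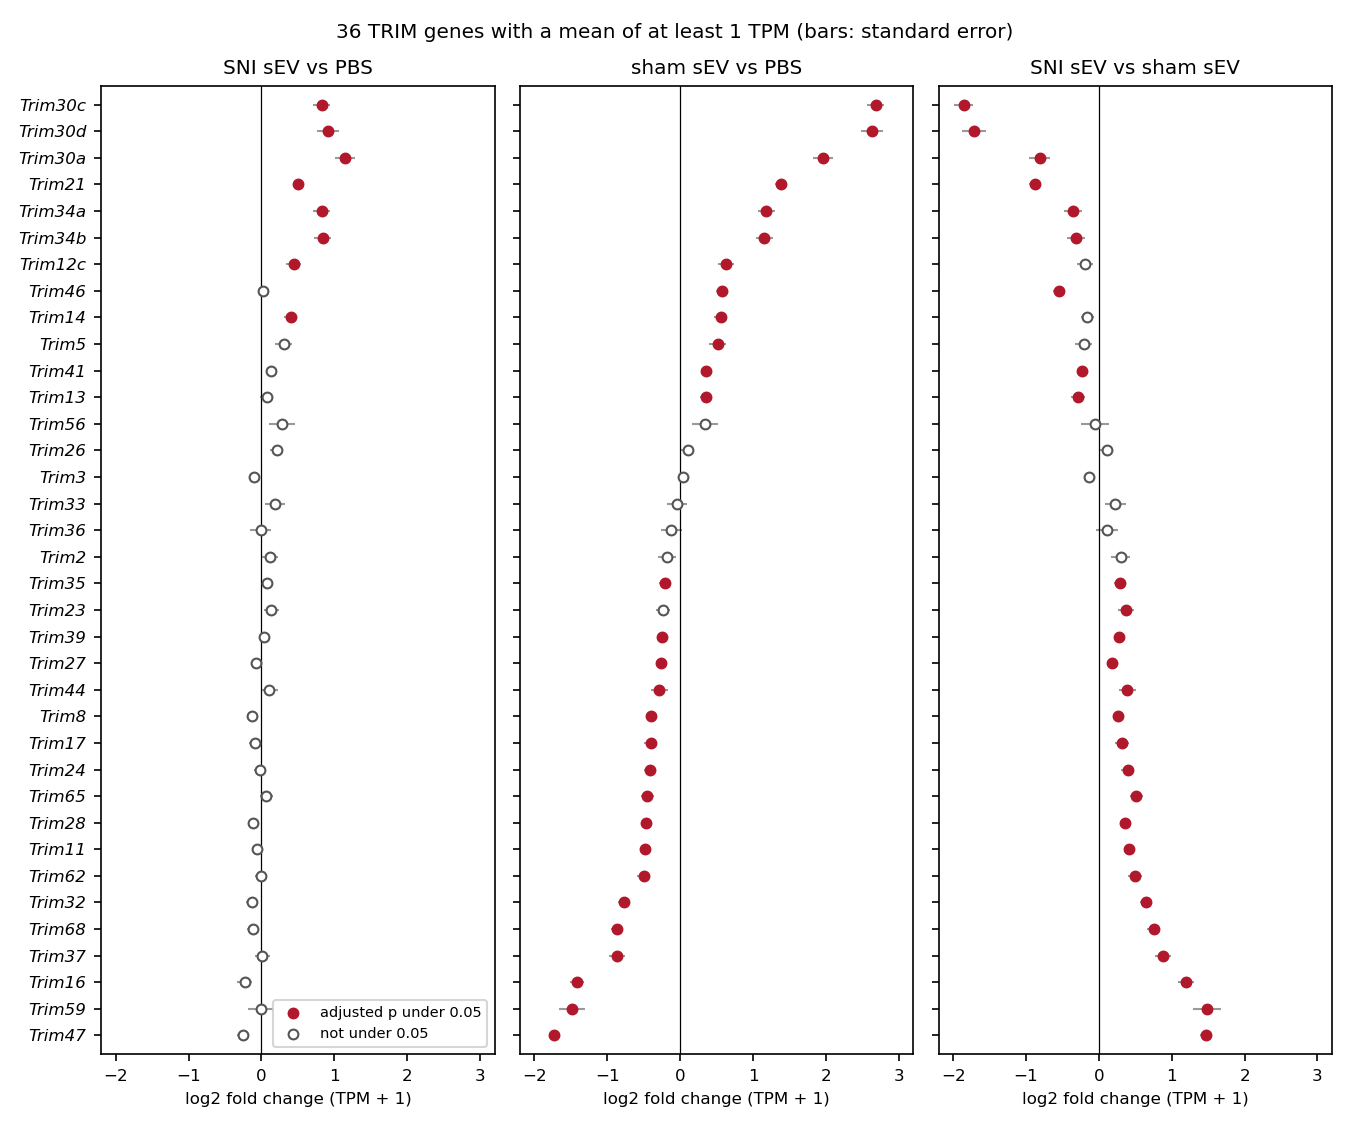
Log2 fold changes of TPM + 1 (horizontal axes, bars: standard error) of the 36 TRIM genes for SNI sEV against PBS, sham sEV against PBS and SNI sEV against sham sEV. Filled points passed the test, in 8 of the 36 (5.34% of all genes), 29 (68.9%) and 27 (65.6%) on the deposited TPM scale. Of the 17 falls with sham sEV, 10 are lost under at least 1 other scaling.

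The 10 members of the chromosome 7 block lie within GRCm38 positions 104218793 to 104507849, and 7 of them passed 1 TPM. Of these 7, 6 rose with SNI sEV, beside 2.97% of all genes, and 7 with sham sEV, beside 16.5%. Against sham sEV, 5 were lower with SNI sEV, beside 15.7% of all genes. The 7 include Trim30c, which passed 1 TPM through the vesicle groups. The call missing with SNI sEV was that of Trim5. By gene position, the sham-sEV fold changes were 0.51 to 1.18 from Trim34a to Trim12c and 1.96 to 2.68 from Trim30c to Trim30d, while the SNI-sEV fold changes spanned 0.30 to 1.14. Trim6, Trim12a and Trim30b in the same block averaged 0.156, 0.608 and 0.0537 TPM over all libraries. Trim30b was listed at 0 in all 4 PBS libraries and averaged 0.0433 ± 0.0231 TPM with SNI sEV and 0.136 ± 0.0155 TPM with sham sEV.

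**Figure D3:**
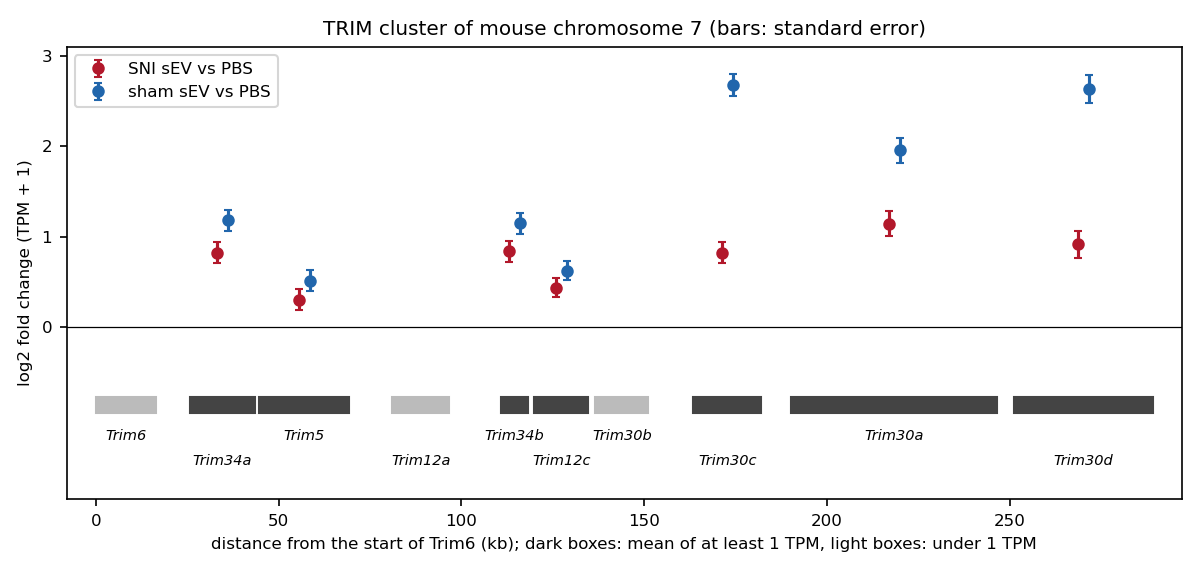
Log2 fold changes of TPM + 1 (vertical axis, bars: standard error) for SNI sEV and sham sEV against PBS over the chromosome 7 block, by distance from the start of Trim6 in kb (horizontal axis); boxes are genes, dark where the mean is at least 1 TPM. The sham-sEV value lies above the SNI-sEV value at each of the 7 genes drawn.

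The falls with sham sEV had 3 members of at least 1 on the log2 scale, and these stayed at -1.15 or lower under both other scalings. Trim47, a ligase known in mouse liver for acting on the deubiquitinase CYLD, had 36.4, 35.6 and 35.1 TPM with SNI sEV, 11.9, 11.7 and 13.0 TPM with sham sEV, and 46.8, 37.1, 43.9 and 43.8 TPM with PBS. The sham-sEV libraries stood far below the rest. The fold change against PBS was -1.73 ± 0.08 with sham sEV (adjusted p = 2.78e-09, limma) and -0.25 ± 0.08 with SNI sEV (adjusted p = 0.0844, limma).

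Trim59, a membrane-anchored member that restrains innate signalling through ECSIT in human cells, had 5.30, 7.76 and 7.54 TPM with SNI sEV, 1.94, 1.78 and 1.63 TPM with sham sEV, and 4.73, 8.47, 8.51 and 6.18 TPM with PBS. The SNI-sEV and PBS libraries overlapped, and the sham-sEV libraries lay below both. The sham-sEV fold change was -1.49 ± 0.18 (adjusted p = 1.64e-05, limma). Trim16, which lacks a RING domain and takes part in the autophagy of damaged membranes in human cells, had 2.95, 3.40 and 3.41 TPM with SNI sEV, 0.767, 0.843 and 0.988 TPM with sham sEV, and 3.15, 4.20, 4.44 and 4.21 TPM with PBS. Its fold change was -1.42 ± 0.10 with sham sEV (adjusted p = 2.33e-07, limma), on a scale that understates it, since the ratio of mean TPM was 0.216. Exons of Trim16 overlap those of Fbxw10 on the same strand, and those of Trim47 overlap Trim65.

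The 4 others that kept the call under each scaling fell less. Trim37, which acts at the centriole and in peroxisome import, averaged 14.8 ± 1.39 TPM with SNI sEV, 7.58 ± 0.376 with sham sEV and 14.7 ± 2.13 with PBS. Trim68, known in human cells as a partner of the androgen receptor, averaged 6.99 ± 0.430 TPM with SNI sEV, 3.75 ± 0.381 with sham sEV and 7.64 ± 0.604 with PBS. The sham-sEV libraries of both lay below all others. Trim32, a ligase of the NHL class linked to muscular dystrophy in humans, averaged 14.6 ± 0.712 TPM with SNI sEV, 9.0 ± 0.244 with sham sEV and 16.2 ± 1.48 with PBS. Trim28 averaged 111 ± 2.66 TPM with sham sEV. The sham-sEV fold changes against PBS were -0.87 for Trim37, -0.86 for Trim68, -0.78 for Trim32 and -0.47 for Trim28. The smallest values under another scaling were -0.58 for Trim37, -0.52 for Trim68, -0.50 for Trim32 and -0.18 for Trim28. On the deposited scale adjusted p ran from 2.42e-06 to 2.46e-05 (limma).

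**Figure D4:**
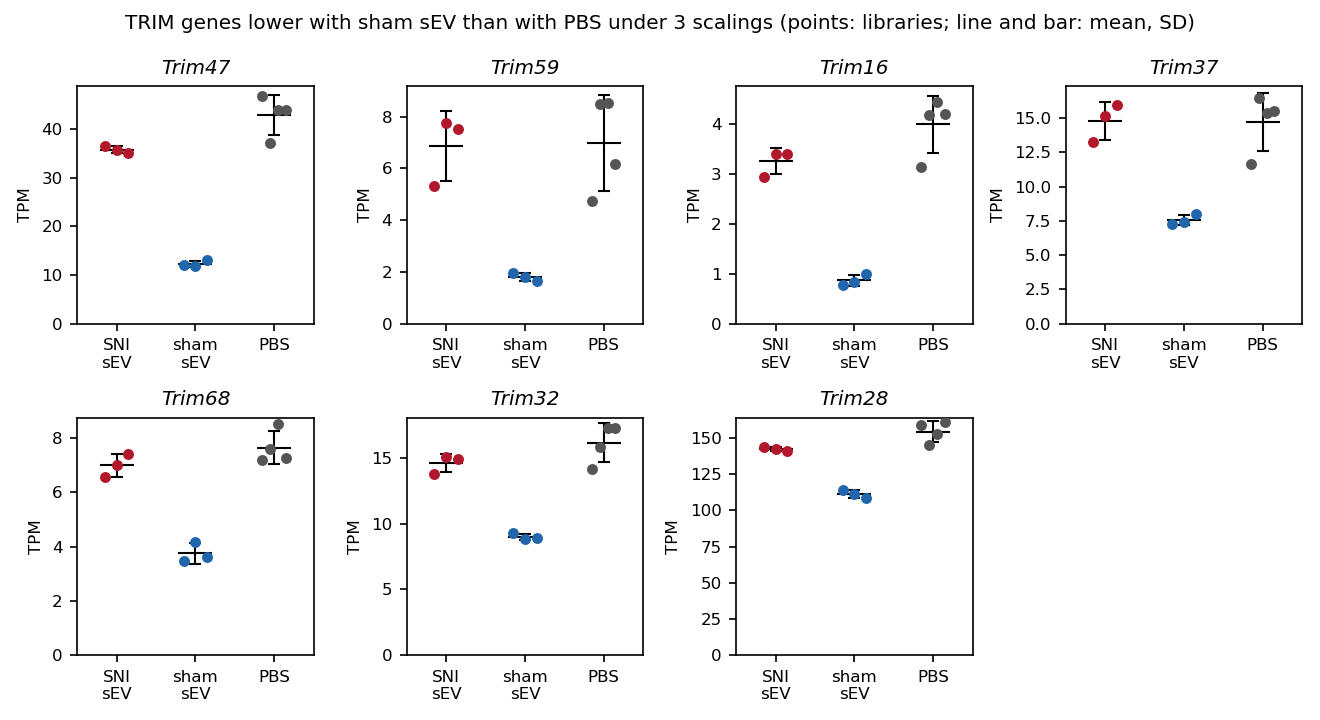
TPM (vertical axes, each from 0) of the 7 TRIM genes lower with sham sEV than with PBS under all 3 scalings, in each library of the 3 groups; the line and bar are the mean and SD. The sham-sEV libraries lie below every SNI-sEV and PBS library in each of the 7.

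The remaining 10 falls were between -0.21 (Trim35) and -0.50 (Trim62) on the deposited scale, and each lost its call under at least 1 other scaling. They take in Trim65, which activates the RNA sensor MDA5, and Trim39, an inhibitor of the anaphase-promoting complex. Trim65 averaged 8.47 ± 0.300 TPM with SNI sEV, 5.62 ± 0.217 with sham sEV and 8.08 ± 1.03 with PBS, and fell by 0.45 with sham sEV (adjusted p = 0.000708, limma), or by 0.20 under median-of-ratios scaling. The members without a call on the deposited scale were Trim2, Trim3, Trim23, Trim26, Trim33, Trim36 and Trim56.

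**Figure D5:**
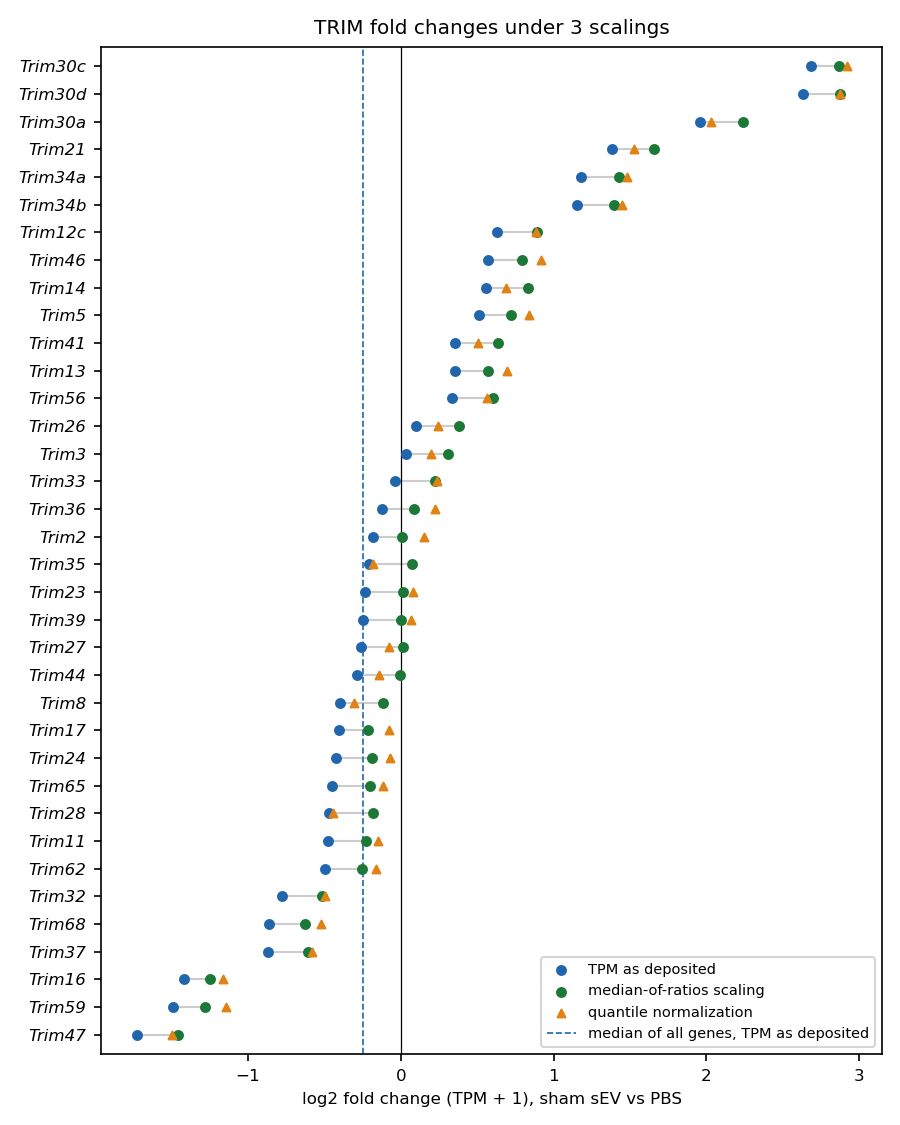
Log2 fold changes of TPM + 1 for sham sEV against PBS (horizontal axis) of the 36 TRIM genes with TPM as deposited, after median-of-ratios scaling and after quantile normalization; the dashed line is the median of all genes as deposited. The members from Trim30c to Trim13 stay above 0 and those from Trim32 to Trim47 at -0.50 or lower under each scaling, while Trim35, Trim27 and Trim39, among the 17 falls, cross 0.

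Compared directly, SNI sEV left 9 TRIM genes lower than sham sEV, beside 15.7% of all genes, and 18 higher, beside 49.9% of all genes. The median was 0.25 over the 36 and 0.24 over all genes. By the libraries alone, 12 members lay below every sham-sEV library in all SNI-sEV libraries, beside 19.4% of all genes, and 20 lay above, beside 58.8%. The 9 lower genes kept their call under both other scalings, and Trim14, Trim3, Trim12c and Trim5 joined them there. Of the 18 higher genes, Trim47, Trim59, Trim16, Trim37, Trim68 and Trim32 kept it under both, and Trim8, Trim27, Trim39 and Trim17 changed sign under at least 1.

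Of the 8 genes that rose with SNI sEV, 6 were lower with SNI sEV than with sham sEV. The differences were -1.86 ± 0.13 for Trim30c, -1.72 ± 0.16 for Trim30d, -0.88 ± 0.08 for Trim21 and -0.81 ± 0.15 for Trim30a, with adjusted p of 2.08e-06 for Trim21 and 0.000545 for Trim30a (limma). For Trim34a and Trim34b they were -0.36 ± 0.12 and -0.31 ± 0.13, with adjusted p of 0.0258 and 0.0475 (limma), and the calls were lost in 5 and 11 of the 20 alternatives. Under quantile normalization they were -0.66 and -0.62. For Trim12c and Trim14 the difference did not pass the test on the deposited scale (-0.19 ± 0.11 and -0.16 ± 0.09). The other lower genes were Trim46 (-0.55 ± 0.08), Trim13 (-0.28 ± 0.09) and Trim41 (-0.23 ± 0.06), with differences as large as -0.91, -0.65 and -0.50 under another scaling.

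Trim47 (1.47 ± 0.08), Trim59 (1.48 ± 0.19) and Trim16 (1.19 ± 0.11) had the largest positive differences between SNI sEV and sham sEV. Their adjusted p were 2.80e-08, 3.71e-05 and 2.6e-06 (limma). The 17 genes that fell with sham sEV were picked by low sham-sEV libraries. The same libraries are the reference here, so a positive difference was largely set beforehand. On the deposited scale all 17 were higher with SNI sEV than with sham sEV, beside 49.9% of all genes. Trim68 and Trim32, at 0.75 and 0.64 there, were at 0.39 and 0.36 under quantile normalization. In 12 of these 17 the SNI-sEV mean lay between the sham-sEV and PBS means, and in 5 it lay above the PBS mean.

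By C-terminal class, a grouping from textbook knowledge, the direction was mixed within the largest one. Trim14 and Trim16, which lack a RING domain, were listed in a separate class whatever their C-terminus. Trim9, Trim36, Trim46 and Trim67, listed with COS and FN3 domains beside a SPRY domain, also had their own class. The SPRY counts leave all of these out. The SPRY class as listed, which binds target proteins through a SPRY domain, had 33 members, 19 of them tested. Of these, 7 rose with SNI sEV, and 9 rose and 9 fell with sham sEV. Over all genes 2.97% were higher with SNI sEV, and 16.5% were higher and 52.5% lower with sham sEV, so 9 falls of 19 were near the general share. On the deposited scale 9 were higher and 7 lower with SNI sEV than with sham sEV. The 3 tested members with a plant homeodomain and bromodomain (Trim24, Trim28 and Trim33, all chromatin-bound) had 2 falls with sham sEV, of which that of Trim28 held under both other scalings. Of the 3 tested NHL members only Trim32 fell with sham sEV. Classes of 3 are too small to set against the 52.5%. All 25 tested members outside the interferon list were without a call with SNI sEV by limma, and with sham sEV 3 of them rose and 17 fell. At an unadjusted p under 0.05 (limma), 1 of them was higher and 4 lower with SNI sEV, without a share of all genes to set beside it.

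Genes that work with the family were read for context, to be set beside 2.97% of all genes higher with SNI sEV, and 16.5% higher and 52.5% lower with sham sEV. Of 4 family members under other symbols, Pml and Mid1 passed 1 TPM. Pml, the scaffold of nuclear bodies and itself interferon-inducible, averaged 12.6 ± 0.299 TPM with SNI sEV, 14.4 ± 0.468 with sham sEV and 8.95 ± 0.723 with PBS. It rose over PBS by 0.45 ± 0.07 with SNI sEV (adjusted p = 0.00247, limma) and by 0.63 ± 0.07 with sham sEV (adjusted p = 8.12e-06, limma). Mid1 fell by 0.25 ± 0.10 with sham sEV (adjusted p = 0.0466, limma), but its sign turned under both other scalings. Among 13 activating and conjugating enzymes that feed ubiquitin to RING ligases, 1 rose with SNI sEV, and 6 rose and 2 fell with sham sEV. The 1 was Ube2l6, known as the conjugating enzyme of the ubiquitin-like ISG15, at 107 ± 3.55 TPM with SNI sEV, 154 ± 14.9 with sham sEV and 70.0 ± 6.77 with PBS.

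Of 14 tested signalling proteins on which TRIM ligases are known to act, 2 rose with SNI sEV, and 4 rose and 7 fell with sham sEV, the falls near the general share. Ifih1, which encodes the sensor MDA5 that Trim65 activates, averaged 27.2 ± 0.959 TPM with SNI sEV, 71.8 ± 4.07 with sham sEV and 11.9 ± 3.15 with PBS. Sting1, a target of Trim56, averaged 45.5 ± 1.85 TPM with SNI sEV, 27.1 ± 0.403 with sham sEV and 46.8 ± 1.26 with PBS. Of 9 partners of Trim28 in gene repression, 2 rose and 4 fell with sham sEV, shares near those of all genes. Setdb1, the histone methyltransferase of that complex, fell with sham sEV by 0.45 ± 0.07 (adjusted p = 9.21e-05, limma), or by 0.17 under median-of-ratios scaling. Trim28 itself fell by 0.47 ± 0.05 (adjusted p = 3.86e-06, limma), or by 0.18 under that scaling. The oligodendrocyte-lineage markers fell with sham sEV in 7 of 7 genes and the astrocyte markers in 5 of 6, and their part in the falls of the TRIM genes was not tested.

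The authors' deposited table holds 2375 differential genes, beside 32074 symbols with expression values. It holds 9 of the 61 members, namely Trim59, Trim21, Trim34a, Trim34b, Trim30c, Trim30a, Trim30d, Trim16 and Trim47. In the authors' deposited table the false discovery rate for SNI sEV against PBS was under 0.05 only for Trim30c (signed fold change 1.77, rate 0.0251). Trim14 and Trim12c, also called higher here, are absent from it. For the other 5 genes called higher here, the authors' deposited table gives rates of 0.0653 (Trim21) to 0.109 (Trim30d). For sham sEV against PBS it gives all 9 a rate of at most 0.00306, with signed fold changes from 6.42 for Trim30c to -3.31 for Trim47. The rate there is adjusted in a way that the sources used here do not give.

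The 25 members under 1 TPM summed to 4.89 ± 0.264 TPM with SNI sEV, 4.27 ± 0.0398 with sham sEV and 4.76 ± 0.545 with PBS, and were not tested. Of these, 12 were under 0.1 TPM and 13 between 0.1 and 1 TPM. Among them are Trim54, Trim55 and Trim63, the muscle members of the COS class, at most 0.0329 TPM each over all libraries. Trim9 and Trim67, brain members known from neurons, averaged 0.201 and 0.167 TPM. Trim38 and Trim6, both on the interferon list, averaged 0.0748 and 0.156 TPM.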

How the data were processed

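Groups came from the treatment labels. The submitters' processing notes name the mm10 build and, as tools, featureCounts 2.0.2, Subread, BWA and bcl2fastq. Their roles, the annotation and the division of reads between near-identical copies are not given in the sources used here. The deposited expression table holds the authors' TPM, which sum to 1000000 in each library and keep no read totals, so depth is unknown and no count test or counting interval was made. A second deposited table gives, per the file headers, a false discovery rate (an adjusted p-value) and the authors' signed fold change (a score that jumps from -1 to 1) for each comparison.

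The 14806 genes averaging 1 TPM or more entered a limma 3.58.1 fit in R 4.3.3 on log2(TPM + 1), which gave each group its mean and pooled the spread over all 3 groups, with a trend in eBayes. Tests were two-sided with Benjamini-Hochberg adjustment over these genes and a threshold of 0.05. Fold changes of TPM + 1 understate ratios of low genes. Errors beside TPM are SD and beside log2 fold changes SE. The labels call the libraries biological replicates, but p-values measure the spread between these libraries only. The labels name no batch, so how any batch lay across the treatments is unknown. A batch that followed treatment could not be told apart from it. The fit was tested on simulated data.

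Coordinates are those of GENCODE vM21 (GRCm38, the assembly of mm10), where all 61 members matched. Members, gene lists and alternatives were chosen with earlier results of these data known. Every member of at least 1 TPM could be named. Those called with a log2 fold change of at least 1, or called with SNI sEV against PBS, are given by library, as is Trim5, which was added to them. Same-numbered SNI-sEV and PBS libraries deviated from their group means together (correlation across genes 0.154 to 0.363 in 3 of 3 pairs, against -0.351 to 0.220 for different numbers) and were taken as paired. The main fit left this pairing out. With the replicate block in it, the 8 genes higher with SNI sEV than with PBS kept their calls, with adjusted p from 0.00163 (Trim30a) to 0.0347 (Trim12c) (limma). Same-numbered sham-sEV and PBS libraries (-0.0176 to 0.0512, against -0.270 to 0.161 for different numbers) were not taken as paired. Nor were SNI-sEV and sham-sEV libraries (0.0172 to 0.0772, against -0.0833 to 0.0177), whose same-numbered values were small but mostly the higher ones. Alternatives changed the pseudocount (0.1 or 0.5), the filter (none, or an average of 5 TPM or more), the scaling (median-of-ratios or quantile), the spread (robust, or from only the 2 groups compared), added a replicate block or left out a library. The block within only the 2 groups was added after seeing the data.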

Additional observations from a re-analysis of the deposited data

Results flagged for a closer look

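In the PBS group, 6 of the 36 TRIM genes had a library far from the other 3 by Dixon's test at the 95% level, where chance gives about 1 in 20 such groups. Replicate 1 was low for 4 of them. Trim44, a member with a ubiquitin-protease zinc finger in place of the RING, had 33.5 TPM in replicate 1 and 46.9 to 48.7 TPM in the others. Trim14 had 24.5 TPM there, against 30.7 to 31.4 TPM. Trim33 had 7.94 TPM, against 12.2 to 12.9 TPM, and Trim24 had 4.72 TPM, against 5.84 to 5.97 TPM. Replicate 4 was high for the other 2. Trim3 had 33.5 TPM there, against 28.6 to 29.0 TPM, and Trim46 had 2.48 TPM, against 2.12 to 2.15 TPM. Groups of 3 libraries were not examined in this way. Nor were all genes, so the 6 have no general share beside them. Flags in the same library are not independent of each other, so their number is not read as a trait of the family.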

How the results depend on the processing

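Across 20 alternatives, counts of TRIM genes past the threshold moved by over 1.5 times in these cases. With SNI sEV against PBS, 1 member was lower without PBS replicate 1 and 1 without PBS replicate 2, against 0. With sham sEV against PBS, 8 were lower under quantile normalization, against 17. With SNI sEV against sham sEV, 10 were higher under quantile normalization and 10 when scaled by median ratios, against 18. With each library left out, the counts were 6 to 9 higher and 0 to 1 lower for SNI sEV against PBS, 12 to 13 higher and 15 to 20 lower for sham sEV against PBS, and 17 to 20 higher and 6 to 10 lower for SNI sEV against sham sEV. With the replicate block they were 8 higher and 0 lower for SNI sEV against PBS, 12 and 17 for sham sEV against PBS, and 19 and 10 for SNI sEV against sham sEV. With the block in only the 2 groups compared they were 7 and 0 for SNI sEV against PBS, 12 and 14 for sham sEV against PBS, and 20 and 13 for SNI sEV against sham sEV. The sham-sEV libraries were not taken as paired, so the block counts that involve them rest on shared numbers only. With all groups in the fit, the block changed none of the 8 calls for SNI sEV against PBS. In the 2 groups alone it moved the count to 7, against 6 without the block, and the call it added was that of Trim14. Fold changes past the threshold changed sign only under the scalings, while some that were not past it also did so with a library left out or with the block. For sham sEV against PBS the log2 fold changes under median-of-ratios scaling were 0.073 for Trim35, 0.014 for Trim27, 0.00076 for Trim39 and 0.0020 for Mid1, and under quantile normalization 0.066 for Trim39 and 0.055 for Mid1. For SNI sEV against sham sEV they were -0.0074 for Trim8 and -0.085 for Trim27 under median-of-ratios scaling, and -0.0093 for Trim27, -0.044 for Trim39 and -0.033 for Trim17 under quantile normalization. The cause was not tested. Calls that held in every alternative numbered 6 of 8 for SNI sEV against PBS, 19 of 29 for sham sEV against PBS and 12 of 27 for SNI sEV against sham sEV. TPM keep no depth, so how firmly the low members are measured is unknown.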
